A study of Mus musculus with 2 samples.

Results

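The miR-34 and miR-449 family was described here in the stomach of newborn mice through its 6 genes, Mir34a, Mir34b, Mir34c, Mir449a, Mir449b and Mir449c. The genes were taken by symbol from the GENCODE mouse annotation, 1 row each of the 1973 miRNA gene rows in the count tables, and 4 of the 6 were detected, meaning at least 10 counts in each library. The small RNA (below 30 nucleotides) of whole stomachs was sequenced at postnatal day 0 in the B6NCrl strain, with no treatment or engineered allele in the labels and the sex not collected. The 2 libraries came from different pups of 1 dam, called pup 1 and pup 2, although the labels give both the same donor identifier. They form 1 group, so levels are described over these littermates and there is no contrast between conditions.

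A miRNA is a short RNA that guides an Argonaute protein to messenger RNAs, chiefly through pairing of its seed, bases 2 to 8 from the 5′ end. The miR-34 genes are transcriptional targets of the tumour suppressor p53, and their miRNAs repress cell-cycle and survival genes such as Cdk6, Met and Bcl2. The miR-449 genes are induced by E2F1, and together with Mir34b and Mir34c they are known from multiciliated cells of the airway and from the testis, where the miRNAs of the family act redundantly. The lining of the stomach is not known for multiciliated cells.

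The sequences of the 5′ arms are shown because the shared seed is what makes these genes 1 family. They are from RefSeq on GRCm38.p6, written 5′ to 3′ with the seed in capitals.

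mmu-miR-34a-5p: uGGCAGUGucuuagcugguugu

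mmu-miR-34b-5p: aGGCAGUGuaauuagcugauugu

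mmu-miR-449a-5p: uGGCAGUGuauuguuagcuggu

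mmu-miR-449c-5p: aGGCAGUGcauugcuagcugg

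All 4 carried the seed GGCAGUG, and these were the only entries with it among 1738 mature miRNAs in the RefSeq table, 0.230% of them. Outside the seed they were not identical. Matches were counted base by base from the 5′ end, with the seed included and no gaps allowed. By this count miR-449a-5p and miR-449c-5p matched at 18 of 21 positions. The sequence of miR-34a-5p matched miR-449a-5p at 15 of 22 and miR-34b-5p at 11 of 22. An inserted base can lower such a count for the bases after it. The RefSeq table matched 5 of the 6 genes. Mir449b was not matched, and of Mir34c the hairpin and the 3′ arm were matched. The 5′ arms of Mir449b and Mir34c are therefore not among the 4, which are not the whole family.

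Mir34b and Mir34c are cut from 1 primary transcript, and their hairpins are shown because their counts differed most among detected neighbours. The letters GGCAGUG are again in capitals.

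Mir34c: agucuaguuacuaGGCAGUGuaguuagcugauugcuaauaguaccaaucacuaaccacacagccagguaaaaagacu

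Mir34b: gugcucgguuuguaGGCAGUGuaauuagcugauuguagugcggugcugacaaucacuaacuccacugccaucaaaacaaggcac

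The heptamer GGCAGUG, searched on the RNA strand only, occurred once in each of the 5 hairpins, starting at base 14 in Mir34c and at base 15 in Mir34b. It also occurred in 12 other hairpins, so that 1.69% of 1005 RefSeq hairpins held it. The 3′ arms of the pair shared a seed of their own, shown in capitals because no other mature entry had it.

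mmu-miR-34c-3p: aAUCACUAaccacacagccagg

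mmu-miR-34b-3p: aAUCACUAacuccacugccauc

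These 3′ arms matched at 17 of 22 positions, counted in the same way with the seed included. The counts are per gene and do not separate the arms, so no value below tells which arm was read. The longest exact stretch that a member's hairpin shared with any other RefSeq hairpin was 14 nt for Mir449a. It was 11 nt for Mir34a, Mir34b, Mir34c and Mir449c, each stretch shorter than a mature miRNA. Exact stretches leave out likeness with a mismatch. In their 5′ parts the hairpins of Mir34b and Mir34c are alike on both sides of a differing base. Mir449b was not compared. Hairpin GC content ran from 40.3% in Mir34c to 52.3% in Mir449c, against a median of 51.7% over all RefSeq hairpins. Predicted folding energy of the whole hairpin, not scaled to its length, ran from -29.8 kcal/mol in Mir34c to -44.5 kcal/mol in Mir449a. Per nucleotide it ran from -0.383 kcal/mol in Mir449c to -0.489 kcal/mol in Mir449a.

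The genes lie at 3 places in the genome (GRCm38). Mir34a (ENSMUSG00000065493.1) is on the plus strand at chr4:150068454-150068555, between genes, with Gpr157 the nearest protein-coding gene at 18810 bases. Mir34c (ENSMUSG00000065587.1, chr9:51103034-51103110) and Mir34b (ENSMUSG00000065492.1, chr9:51103562-51103645) are 451 bases apart on the minus strand. No gene other than miRNA encloses them on that strand, and Btg4, a gene of the antiproliferative BTG family, overlaps them on the other. Mir449c (ENSMUSG00000076146.1, chr13:113035983-113036091), Mir449b (ENSMUSG00000078027.1, chr13:113037419-113037498) and Mir449a (ENSMUSG00000065575.1, chr13:113037534-113037624) are on the plus strand within an intron of Cdc20b. The gap between Mir449c and Mir449b is 1327 bases, and that between Mir449b and Mir449a is 35 bases.

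A level is given as CPM, the gene's own-strand counts in every 1000000 such counts of the library, and intervals are exact 95% intervals for counting error only. Own-strand counts summed to 4463355 in pup 1 and 3454655 in pup 2. Of all reads in the tables, 26.0% in pup 1 and 25.7% in pup 2 mapped to several places and stay outside the gene counts. The reads are whole small RNAs rather than fragments, so levels were not divided by length. Since the tissue was taken whole, fewer cells of a type and less RNA per cell cannot be told apart. Markers of the labelled tissue were present: the smooth muscle gene Mir143 was the most abundant gene at 24.2% ± 1.23 of the counts (SD, n = 2), 3 of 3 squamous and 4 of 4 glandular epithelial genes were detected, and so were 4 of 4 endocrine genes.

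Mir34a, the p53 target that stands alone on its chromosome, was the highest member. It had 2167 counts in pup 1 and 2112 in pup 2, or 486 CPM (465 to 506) in pup 1 and 611 CPM (586 to 638) in pup 2. Its mean was 548 ± 89.0 CPM (SD, n = 2), at rank 107 of the 305 detected miRNA genes and 3.31 times the median detected gene. By these counts, which leave out reads mapping to several places, the level was moderate for this tissue. It was in the upper part of the detected range but far under Mir143.

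Mir34c, the stronger member of the chromosome 9 cluster, had 861 counts in pup 1 and 757 in pup 2. This was 193 CPM (180 to 206) in pup 1 and 219 CPM (204 to 235) in pup 2, with a mean of 206 ± 18.5 CPM at rank 138. Its partner Mir34b had 37 counts in pup 1 and 33 in pup 2. Mir34b therefore stood at 8.29 CPM (5.84 to 11.4) in pup 1 and 9.55 CPM (6.58 to 13.4) in pup 2, with a mean of 8.92 ± 0.893 CPM at rank 267, near the low end of the detected range.

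Mir449a, which promotes the making of multiple cilia by repressing Notch signalling genes, had 645 counts in pup 1 and 476 in pup 2. Its level was 145 CPM (134 to 156) in pup 1 and 138 CPM (126 to 151) in pup 2, with a mean of 141 ± 4.76 CPM at rank 162 and 0.852 times the median detected gene. The neighbours in the same Cdc20b intron had next to no counted reads. Reads mapping to several places stay outside these counts, and no sequence of Mir449b was compared. Such low counts therefore do not show that these miRNAs were absent. Mir449c had 0 counts in pup 1, with an exact interval up to 0.826 CPM, and 2 counts in pup 2, or 0.579 CPM (0.0701 to 2.09). Mir449b had 0 counts in both pups, with exact intervals up to 0.826 CPM in pup 1 and 1.07 CPM in pup 2. The floor of 3 counts used below stands at 0.672 CPM in pup 1 and 0.868 CPM in pup 2. None of the 6 genes had a read counted on its opposite strand, the strand of Btg4 for Mir34b and Mir34c included.

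**Figure D1:**
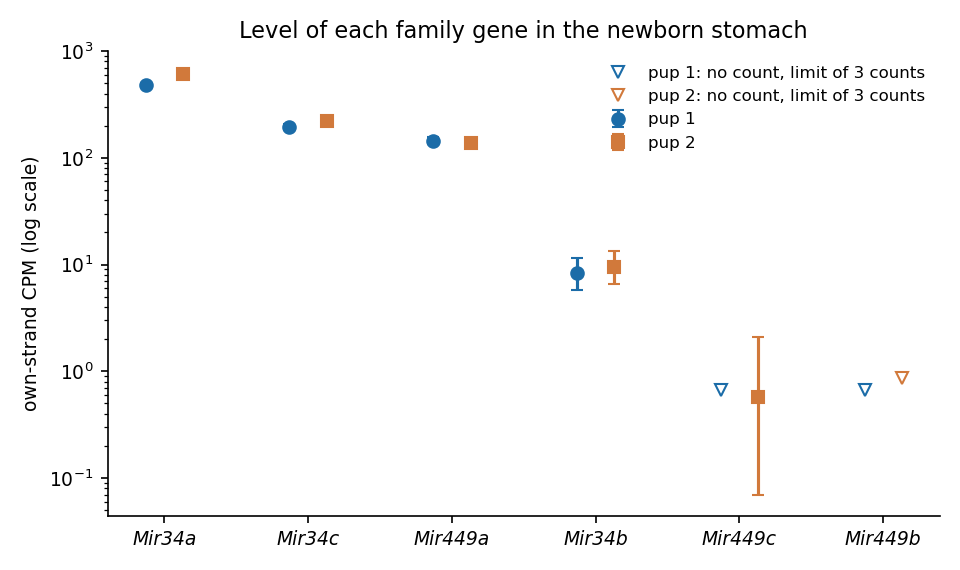
Own-strand CPM of each member (log scale) in pup 1 (circles) and pup 2 (squares), with exact 95% counting intervals; open triangles mark the limit of 3 counts where a library had no count. Mir34a, Mir34c and Mir449a lie between 138 and 611 CPM, Mir34b near 9 CPM, and Mir449c and Mir449b at or under about 1 CPM.

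**Figure D2:**
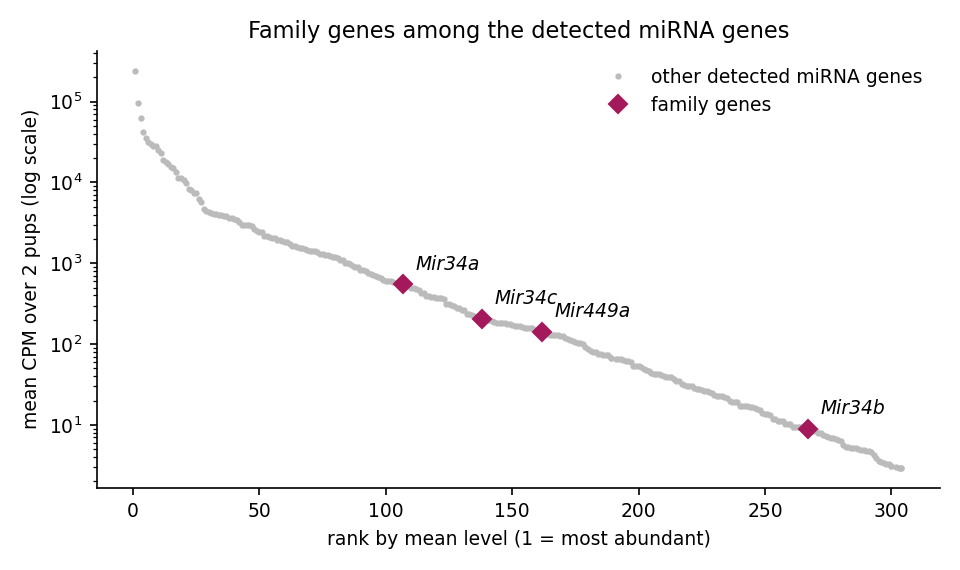
Mean CPM over the 2 pups (log scale) against rank for the 305 detected miRNA genes (grey) with the 4 detected members marked. The members stand at ranks 107, 138, 162 and 267.

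The order of the detected members was the same in both pups, Mir34a above Mir34c above Mir449a above Mir34b. Ratios of counts within a pup show how far apart they stood and do not depend on library scaling. Mir34a exceeded Mir34c 2.52-fold (2.32 to 2.73) in pup 1 and 2.79-fold (2.57 to 3.04) in pup 2, a mean log2 ratio of 1.41 ± 0.11 (SD, n = 2). Mir34c exceeded Mir449a by less, 1.33-fold (1.20 to 1.48) in pup 1 and 1.59-fold (1.42 to 1.79) in pup 2, a mean log2 ratio of 0.54 ± 0.18. Mir449a exceeded Mir34b 17.4-fold (12.5 to 25.0) in pup 1 and 14.4-fold (10.1 to 21.2) in pup 2, a mean log2 ratio of 3.99 ± 0.19. Each of these neighbouring pairs differed by more than its SD over the pups, and every counting interval lay above 1. The smallest p that 2 libraries allow in an exact permutation test is 0.5, and for this reason the SD and the counting intervals are the only yardsticks here.

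Members of 1 cluster were far apart in reads. Mir34c exceeded Mir34b 23.3-fold (16.7 to 33.3) in pup 1 and 22.9-fold (16.2 to 33.6) in pup 2, a mean log2 ratio of 4.53 ± 0.015. In the chromosome 13 cluster the gap was wider still. Mir449a was at least 215-fold higher than Mir449b in pup 1 and at least 159-fold higher in pup 2, taking the floor of 3 counts per library for Mir449b and the count of Mir449a as exact. The exact 95% interval, which covers the error of both counts, began at 174-fold in pup 1 and 129-fold in pup 2. Against Mir449c it was at least 215-fold higher in pup 1 by the same floor, with an interval from 174-fold, and in pup 2 the ratio was 238 (65.5 to 1971). These are ratios of counted reads, which leave out those mapping to several places. Whether reads of members alike in sequence were left out or assigned to the other member was not tested. How evenly each small RNA entered the libraries was not calibrated.

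**Figure D3:**
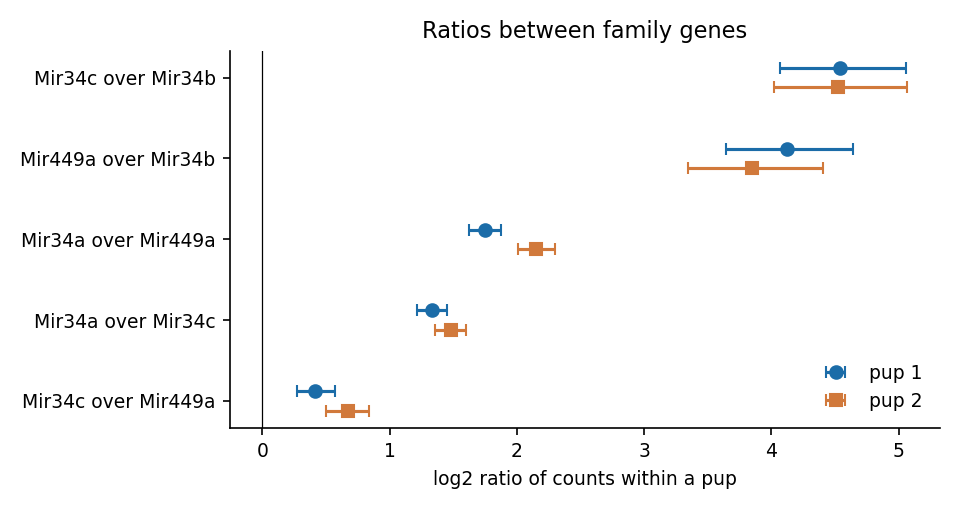
Log2 ratio of counts between pairs of detected members within pup 1 (circles) and pup 2 (squares), with exact 95% counting intervals. The ratios of Mir34c over Mir34b nearly coincide, whereas those of Mir34a over Mir449a stand apart at 1.75 in pup 1 and 2.15 in pup 2.

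Together the 6 genes held 3710 own-strand counts in pup 1 and 3380 in pup 2. This was 0.0831% of the counts (0.0805% to 0.0858%) in pup 1 and 0.0978% (0.0946% to 0.101%) in pup 2, or 0.0905% ± 0.0104 (SD, n = 2). Mir34a made up 60.4% ± 2.88 of the family's counts, the chromosome 9 cluster 23.8% ± 0.588 and the chromosome 13 cluster 15.8% ± 2.29. The 3 miR-34 genes held 82.6% (81.4% to 83.8%) of the family's counts in pup 1 and 85.9% (84.6% to 87.0%) in pup 2, reads of either arm included.

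The composition shifted slightly between the pups beyond counting error. Mir34a held 58.4% of the family's counts (56.8% to 60.0%) in pup 1 and 62.5% (60.8% to 64.1%) in pup 2, and Mir449a held 17.4% (16.2% to 18.6%) in pup 1 and 14.1% (12.9% to 15.3%) in pup 2. Neither pair of counting intervals overlapped. Those of Mir34c did, at shares of 23.2% in pup 1 and 22.4% in pup 2. The ratio of Mir34a over Mir449a was 3.36 (3.08 to 3.67) in pup 1 and 4.44 (4.02 to 4.91) in pup 2. These intervals leave out variation between animals, and with counting error alone as the measure, 52.1% of the 305 genes tested passed an adjusted p under 0.05 between the pups in the exact binomial test. A test against the common dispersion from edgeR cannot judge these shifts, because that error was estimated from the same pups and holds their differences. The difference in the ratio of Mir34a over Mir449a was not tested against it.

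**Figure D4:**
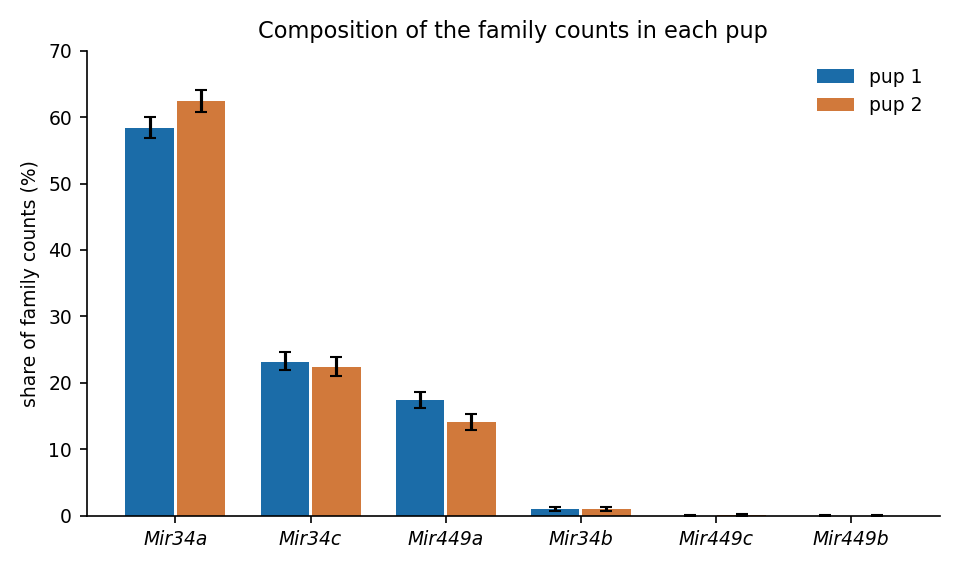
Share of the family's own-strand counts (percent) held by each member in pup 1 (blue) and pup 2 (orange), with exact 95% binomial intervals. Mir34a holds 58.4% in pup 1 and 62.5% in pup 2, and Mir449a 17.4% in pup 1 and 14.1% in pup 2.

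Set against all detected genes, no member differed between the pups by the call used here, an adjusted p under 0.05 with a ratio of at least 1.5. Of the 305 genes tested 2.95% were called, and 0 of the 4 members. The test was a two-sided exact binomial test per gene at TMM effective library sizes with Benjamini-Hochberg adjustment, and it compares these libraries, not conditions. At an unadjusted p under 0.05 stood 1 of 4 members, against 169 of 305 genes. With the common dispersion from edgeR as the error, 0 of 4 members and 1 of 305 genes (0.328%) were called, and 0 members had an unadjusted p under 0.05.

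Mir34a had a log2 ratio of pup 1 over pup 2 of -0.23, lower in pup 1 (-0.32 to -0.14; adjusted p = 7.9e-07, exact binomial test), a difference beyond counting error but under the ratio of 1.5. Since 52.1% of all genes passed without a minimum ratio, Mir34a was in the majority of the table, and 65.9% of genes had a smaller ratio in size. Mir34c had a log2 ratio of -0.08 (-0.22 to 0.06; adjusted p = 0.39, exact binomial test). Mir34b had one of -0.10 (-0.82 to 0.62; adjusted p = 0.89, exact binomial test), an interval that takes in a 1.5-fold difference in either direction. Mir449a was the 1 detected member higher in pup 1 by value, at 0.17 (-0.0013 to 0.35; adjusted p = 0.092, exact binomial test). The median gene stood at -0.02 after this scaling, and the common dispersion of all tested genes equalled an 11.4% coefficient of variation.

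**Figure D5:**
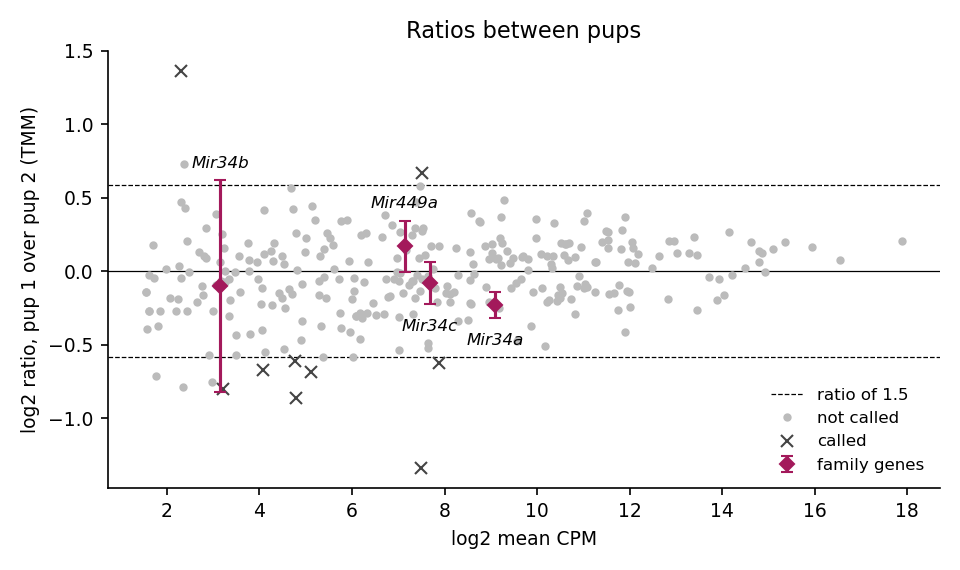
Log2 ratio of pup 1 over pup 2 after TMM scaling against log2 mean CPM for the 305 genes tested, with the detected members in colour and exact 95% intervals. All 4 members lie between the dashed lines at a ratio of 1.5, Mir34a at -0.23 and Mir449a at 0.17.

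The genes closest to each member were sought by the distance between log2 CPM values over the 2 libraries, which measures likeness of level and of the pup ratio only. For Mir34a these were Mir320 (504 CPM in pup 1 and 645 in pup 2; distance 0.095) and Mir194-1 (445 and 552 CPM in pups 1 and 2; distance 0.19). Mir34c lay nearest to Mir30b (distance 0.076) and Mir598 (0.11), and Mir449a nearest to Mir29a (0.034) and Mir370 (0.041). For Mir34b they were Mir363 (0.038) and Mir702 (0.12). Each likeness rests on 2 values per gene.

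Most genes on the fixed lists of miRNA genes that answer to the family's regulators, p53 and E2F factors, were detected as well. Of the p53-responsive list, which includes the 3 miR-34 genes, 14 of 14 genes were detected, against 305 of all 1973 miRNA gene rows. The list's median was 1600 CPM, against a median of 166 CPM over all detected genes. The p53-responsive list takes in 2 of 2 smooth muscle genes and 4 of 4 glandular genes, and a response to p53 was not tested. Its most abundant genes outside the family were Mir143 and the epithelial gene Mir200c (15111 ± 2193 CPM; SD, n = 2). None of the 14 was called between the pups, and their median log2 ratio was -0.13. Of the E2F-responsive list, which includes the 3 miR-449 genes, 11 of 13 analysed genes were detected, and those not detected were Mir449b and Mir449c. The median was 806 CPM over the 11 detected genes and 379 CPM over all 13. Its leading genes were Mir17 (7327 ± 1042 CPM) and Mir20a (3448 ± 616 CPM), members of a proliferation cluster. None of the 11 was called, and their median log2 ratio was -0.14.

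The marker list for multiciliated cells consists of 5 of the family's own genes, so it offers no check of that cell type apart from the family. It held 0.0346% of the counts in pup 1 and 0.0367% in pup 2, and 3 of its 5 genes were detected. Other sites where the family is known include neurons. The list for neurons and glia had 8 of 14 analysed genes detected, with a summed share of 0.159% in pup 1 and 0.187% in pup 2, led by Mir137 (1220 ± 176 CPM) and Mir132 (208 ± 7.07 CPM). Mir124a-1, Mir124a-2, Mir124a-3 and Mir9-2 had 0 counts. Reads mapping to several places stay outside the gene counts, so 0 counts do not show that these miRNAs were absent. The endocrine list, led by Mir375 and Mir7b, held 0.809% in pup 1 and 0.767% in pup 2. The leukocyte list, led by Mir223 and Mir155, had 3 of 3 analysed genes detected and held 0.0561% in pup 1 and 0.0565% in pup 2. The germ line and early embryo list had 1 of 9 analysed genes detected, Mir302a, and held 0.00132% in pup 1 and 0.00107% in pup 2. The part of any of these cells in the counts of the family was not tested.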

How the data were processed

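For either library the authors deposited raw counts of reads per miRNA gene, summed over the strands and for the strands separately. Per the accompanying description files, the assembly is mm10 and the annotation GENCODE M4. Aligner and counter: not given in the sources used here. The strand column with the larger total (97.7% of strand counts in pup 1 and 97.8% in pup 2) was read as the gene's own. Rows naming no gene stayed out of library totals: unmapped reads (8.70% of reads in pup 1 and 8.94% in pup 2), reads mapping to several places (26.0% and 25.7%), reads outside annotated miRNA genes (1.78% and 1.70%) and 0 ambiguous reads. Of 1973 identifiers, 1894 matched GENCODE M21 on GRCm38, which gave names, positions and host genes. Of the fixed symbols, Mir18a, Mir9-1, Mir142 and Mir292a were not analysed.

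The pups are biological replicates per the labels. TMM factors and the common dispersion came from edgeR 4.0.16 and alternative size factors from DESeq2 1.42.0 (R 4.3.3). The common dispersion was estimated with both pups as 1 group, so it holds the differences tested against it. Other steps used Python 3.11.15, scipy 1.17.1, pandas 2.3.3, matplotlib 3.10.9 and RNAfold 2.7.2. The reads carry no molecular identifiers and PCR copies cannot be told from separate molecules, so intervals and the floor of 3 counts cover counting error only. The binomial test was tested on simulated counts for the comparison of the pups, drawn with counting error only and no variation between animals. Of 300 genes in that step, 88 of 96 changed 2-fold, 93 of 93 changed 4-fold and 1 of 111 unchanged genes were called. The 1 of 111 therefore does not tell how often variation between animals is called.

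The members and lists were chosen with earlier results of these data known. Named are all 6 members, up to 2 leading detected genes of each list, the 2 genes nearest to each detected member and the most abundant gene, and the genes with 0 counts in the neural list were named after their values were seen. Alternatives changed the strand, denominator, detection minimum, scaling, error and minimum ratio, or left out a pup.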

Additional observations from a re-analysis of the deposited data

How the results depend on the processing

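With all reads in the table as denominator, the levels were 341 CPM for Mir34a, 128 for Mir34c, 87.7 for Mir449a and 5.55 for Mir34b, and the family held 0.0563%. With Mir143 taken out of the total they were 723, 272, 186 and 11.8 CPM, and the family held 0.119%. Ratios between members and the composition of the family do not use a denominator outside the family. Of the members 3 were detected at a minimum of 50 counts, without Mir34b, and 4 at a minimum of 1. The germ line list had 6 genes at a minimum of 1 count and 0 at 50. Between the pups, 16 genes were called when scaled by total counts (1 higher in pup 1 and 15 in pup 2, with the median log2 ratio at -0.13), 1 with the edgeR common dispersion (0 and 1) and 159 without a minimum ratio, among them Mir34a at -0.23. The log2 ratio of pup 1 over pup 2 kept its sign in each of the 7 settings for all 4 detected members. The main setting, that without a minimum ratio and that with the edgeR dispersion share their scaling, so among them the sign could not differ. The ratio ran from -0.33 to -0.20 for Mir34a, from -0.18 to -0.06 for Mir34c, from -0.20 to -0.08 for Mir34b and from 0.07 to 0.20 for Mir449a. Adjusted p ran from 3.0e-13 to 1.00 for Mir34a, from 0.025 to 1.00 for Mir34c, from 0.70 to 1.0 for Mir34b and from 0.048 to 1.00 for Mir449a (exact binomial test or edgeR). Leaving out either pup gave the other's values, with 4 members detected each time. Mir34b rests on 37 counts in pup 1 and 33 in pup 2, which limits the precision of its ratios. No paired analysis was possible because the samples form 1 group.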
